A study of Homo sapiens with 8 samples.

Results

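The 4 RNA-seq libraries of DND-41, a human T-cell acute lymphoblastic leukaemia line, were compared by the replicate number in their labels. The libraries numbered 2, labelled ACBI-1 2 and DMSO 2, were set against those numbered 1, labelled ACBI-1 1 and DMSO 1. They were 4 of the 8 libraries of the series. The other 4 came from MOLT-4, a further T-cell leukaemia line, with 2 libraries labelled ACBI-1 and 2 labelled DMSO. By the labels, cells of either line grew in RPMI medium with fetal bovine serum and were given 100 nM ACBI-1 or the solvent DMSO, and total RNA was taken at 24 h. Strand-specific libraries were read as paired ends of 100 bp. The labels give no other allele or agent, and do not say whether the numbers stand for separate cultures. All p-values therefore rest on differences between libraries whose origin, biological or technical, is not given.

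The split by number was chosen from the values themselves, and those values are given here as a description. For each pair of libraries, the difference in counts over genes was set against the noise of counting as a chi-square per degree of freedom, which is near 1 where counting noise is all there is. In DND-41 it was 5.49 between the libraries numbered 1 and 5.09 between those numbered 2. It was 68.3 between the libraries labelled ACBI-1 and 64.6 between those labelled DMSO. The crossed pairs stood at 63.2 and 75.5. The 4 libraries thus fell into pairs by number and not by treatment name. In MOLT-4 the libraries fell into pairs by treatment, at 2.65 within ACBI-1, 1.52 within DMSO and 49.4 to 50.8 between the treatments. The authors' deposited table of DND-41 log2 fold changes equals number 2 over number 1 in 27069 of 27069 genes, within a tolerance of 0.001, but matches the labelled treatments, ACBI-1 over DMSO, in 0.151% of them. For MOLT-4 the authors' deposited table matches the labelled treatments in 27777 of 27777 genes.

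What the numbers stand for is therefore unsettled. By the labels each number holds 1 library of each treatment, and whether the number marks the treatment or some other difference between the libraries cannot be told apart here. Every DND-41 log2 difference below is number 2 over number 1, and its sign would turn if the order of the numbers were turned. Values for DND-41 libraries are CPM, the count of a gene scaled to a library of a fixed size after adjustment by the trimmed mean of M-values (TMM), and within each number the library labelled ACBI-1 comes first and the one labelled DMSO second. SE stands for the standard error of a log2 value.

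ACBI-1 is a bifunctional degrader: it binds the bromodomains of SMARCA2, SMARCA4 and PBRM1 and the ubiquitin ligase VHL, so that the bound proteins are ubiquitinated and destroyed by the proteasome. SMARCA4 and SMARCA2 are the alternative ATPase motors of the BAF chromatin remodelling complexes, which slide and evict nucleosomes at promoters and enhancers, and PBRM1 is a subunit of the related PBAF complex. In T-cell acute lymphoblastic leukaemia, activated NOTCH1 drives enhancers of MYC and of genes of early thymocytes, and MYC in turn drives ribosome production and growth.

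The mRNAs of the proteins that ACBI-1 binds did not pass the threshold between the numbers. SMARCA4 mRNA stood at 465 and 434 CPM in number 1 and 467 and 464 CPM in number 2, a log2 difference of 0.05 (SE 0.07). SMARCA2 stood at 96.7 and 89.1 CPM against 87.3 and 80.5 CPM, and PBRM1 at 265 and 239 CPM against 286 and 247 CPM, and neither passed the threshold. VHL, with a difference of 0.16 (SE 0.07), did not pass it either. The compound acts on proteins, which were not measured here, and these mRNA levels were not used to tell which libraries received it. In MOLT-4, SMARCA4 mRNA rose by 0.26 (SE 0.04) on the log2 scale with ACBI-1 (edgeR's quasi-likelihood test, Benjamini-Hochberg adjusted p = 3.09e-08). PBRM1 rose there by 0.11 (SE 0.04) (edgeR adjusted p = 0.00736) and VHL by 0.16 (SE 0.04) (edgeR adjusted p = 0.00221). SMARCA2 did not pass the threshold in MOLT-4, at -0.06 (SE 0.07).

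Markers of the line matched the label. TLX3, the homeobox factor that marks DND-41, stood at 242 and 258 CPM in number 1 and 127 and 146 CPM in number 2, and had no count in any MOLT-4 library. TAL1, the factor that marks MOLT-4, had 7, 1, 1 and 0 counts in the DND-41 libraries and 110.0 and 113 CPM in the MOLT-4 DMSO libraries. Reads of an overlapping gene on the opposite strand came to 11.1% of that small TAL1 count. The CD3 chains, LCK and PTPRC were present in every DND-41 library. CD2 and CD5 were at most 7.38 and 7.91 CPM, and PTCRA, the pre-T-cell receptor chain, had at most 1 count in each.

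The libraries were of like depth, DND-41 having 21308737 to 21815882 counts each and MOLT-4 21585964 to 22067644. Several measures of composition moved with the number. Genes with at least 1 count numbered 21636 to 21830 in number 1 and 22283 to 22846 in number 2. Mitochondrial genes took 5.89 to 6.17% of counts in number 1 and 6.60 to 6.84% in number 2. Genes typed as antisense took 0.329 to 0.335% against 0.430 to 0.453%, and lincRNA genes 0.320 to 0.333% against 0.399 to 0.434%. In MOLT-4 antisense genes took 0.270 to 0.271% of counts with DMSO and 0.319 to 0.320% with ACBI-1. Other measures followed the treatment name in DND-41. Under the ACBI-1 label, ribosomal protein genes made up 2.82% (number 1) and 2.84% (number 2) of counts. Under the DMSO label their share was 3.24% and 3.10%. The top 100 genes held 18.6% and 18.7% under ACBI-1, against 19.2% and 19.4% under DMSO. The part of these measures in the gene differences was not tested.

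Against the spread within a number, the gap between the DND-41 numbers was wide across the transcriptome. Of 14602 genes tested, 7460 passed an adjusted threshold of 0.05 in edgeR's quasi-likelihood test, or 51.1%. These were 3704 genes higher in number 2 (25.4%) and 3756 lower (25.7%), and 881 (6.03%) and 703 (4.81%) of them were at least 2-fold apart. When scaled by total counts instead, 4779 genes were higher and 2916 lower. These calls serve as a yardstick and are not evidence of their own, since the split was made with the values known. The same holds for the later test of the difference between the lines, which takes in this DND-41 gap. In MOLT-4 edgeR's quasi-likelihood test, on a split fixed by the labels, called 8533 of 14618 genes (58.4%). These were 4120 higher (28.2%) and 4413 lower (30.2%) with ACBI-1 (5804 and 3031 with total-count scaling). At least 2-fold apart there were 880 higher (6.02%) and 705 lower (4.82%). The difference varied with a gene's level in both lines. In DND-41 the median difference ran from 0.25 in the decile of genes with the lowest mean level to -0.13 in the highest decile, and in MOLT-4 from 0.21 to -0.12.

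The genes highest in number 2 relative to number 1 were led by PLXDC1, a transmembrane protein first described in tumour endothelium. PLXDC1 stood at 1.16 and 0.879 CPM in number 1 and 24.0 and 24.1 CPM in number 2, a log2 difference of 4.55 (SE 0.15). CTTN, which encodes the actin-binding protein cortactin, stood at 4.65 and 5.03 CPM and 82.5 and 82.5 CPM, a difference of 4.09 (SE 0.09). PLXDC1 was near 1 CPM and CTTN near 5 CPM in number 1, and both were far higher in number 2. Genes named for a large difference were required not to overlap between the numbers, which held for 75.6% of all genes tested. Each also rose in MOLT-4 with ACBI-1, PLXDC1 from 1.76 and 1.23 CPM to 32.8 and 32.6 CPM and CTTN from 2.71 and 3.04 CPM to 33.8 and 34.7 CPM. The synaptotagmin SYT11 went with them, at 1.21 and 1.56 CPM in number 1, 22.7 and 18.9 CPM in number 2 and a MOLT-4 rise of 3.21 (SE 0.10).

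**Figure D1:**
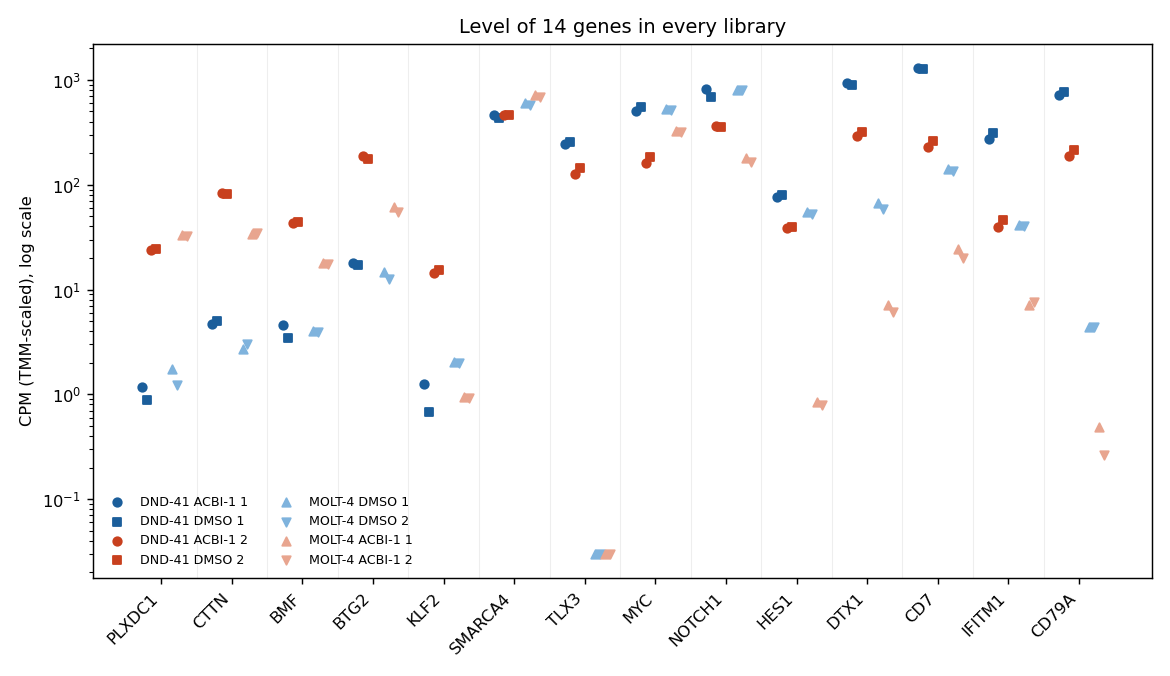
Level of 14 genes in each of the 8 libraries, in TMM-scaled CPM on a log axis, with values under 0.03 CPM drawn at 0.03. Dark points are DND-41 (blue number 1, red number 2; circles labelled ACBI-1, squares labelled DMSO) and pale triangles MOLT-4 (blue DMSO, red ACBI-1); each DND-41 number keeps its circle and square together, as for CTTN at 4.65 and 5.03 against 82.5 and 82.5 CPM.

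Genes of the quiescence and antiproliferative list were mostly higher in number 2. BTG2, an antiproliferative co-factor of mRNA deadenylation, stood at 17.9 and 17.0 CPM in number 1 and 189 and 175 CPM in number 2, a difference of 3.38 (SE 0.08). Outside that list, BMF, a BH3-only protein that neutralises BCL2, stood at 4.56 and 3.47 CPM against 43.6 and 43.7 CPM. Of the list of quiescence and antiproliferative genes, 19 of 24 members tested were higher in number 2 and 3 lower, with a median of 1.04 beside 0.02 over all genes tested. For this and every later list, the shares over all genes tested in DND-41 were 25.4% higher and 25.7% lower. Over all genes tested in MOLT-4, 28.2% rose and 30.2% fell. BTG1 was at 62.3 and 65.2 CPM and 253 and 259 CPM, and CCNG2, an unconventional cyclin of resting cells, at 33.4 and 31.2 CPM and 148 and 138 CPM. YPEL3, a gene tied to growth arrest, was at 6.45 and 6.60 CPM and 35.4 and 36.4 CPM. In MOLT-4, 15 of 23 members of the list rose and 7 fell, with a median of 0.35. BTG1 rose there by 0.35 on the log2 scale, against 2.0 in DND-41, and this difference passed its own test (1.64 (SE 0.09), edgeR adjusted p = 7.81e-11).

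The BCL2 family went both ways. Over 13 members tested, 4 were higher and 4 lower, with a median of -0.02, and these shares were not far from the 25.4% and 25.7% over all genes. Beside BMF, its fellow BH3-only gene BCL2L11 was higher in number 2, at 81.1 and 74.0 CPM against 179 and 175 CPM, with reads of an overlapping gene on the opposite strand at 29.6% of its count. BCL2 itself, which protects cells from death, was lower, at 160.4 and 145 CPM against 88.5 and 81.4 CPM. The pro-apoptotic BID was lower too, at 68.1 and 72.9 CPM against 42.1 and 44.5 CPM. In MOLT-4, BMF rose by 2.16 (SE 0.11) and BCL2 fell by 0.24 on the log2 scale (edgeR adjusted p = 0.00704), a call that DESeq2 and total-count scaling did not make.

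At the opposite end, the genes lowest in number 2 included MATK, TNFRSF8 and NKG7. MATK, a kinase of the CSK family, stood at 26.6 and 27.7 CPM in number 1 and 2.61 and 2.09 CPM in number 2, a difference of -3.53 (SE 0.13). TNFRSF8, the receptor CD30, stood at 47.0 and 45.2 CPM against 4.18 and 4.45 CPM, and NKG7, a protein of cytotoxic granules, at 25.3 and 30.9 CPM against 2.74 and 2.80 CPM. Number 1 was 11.5 times number 2 for MATK, 10.7 times for TNFRSF8 and 10.1 times for NKG7. TNFRSF1B, a receptor of tumour necrosis factor, was at 24.9 and 24.1 CPM and 2.20 and 2.84 CPM and was listed at 0 in every MOLT-4 library. Over all genes tested in both lines, 30.9% fell in MOLT-4. Of the 15 lowest genes in DND-41, 11 could be tested in MOLT-4, and 9 of these fell there. FAH, the last enzyme of tyrosine breakdown, was one of them, at 18.3 and 20.0 CPM and 1.48 and 1.96 CPM in DND-41 and falling from 30.3 and 31.3 CPM to 4.46 and 4.61 CPM in MOLT-4.

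NOTCH1 and its targets HES1 and DTX1 were lower in number 2, each with a smaller gap than its fall in MOLT-4. NOTCH1 stood at 818 and 689 CPM in number 1 and 364 and 359 CPM in number 2, a difference of -1.06 (SE 0.08). HES1, a repressor that NOTCH induces directly, stood at 75.6 and 80.3 CPM and 38.3 and 39.7 CPM, a difference of -1.0 (SE 0.07). DTX1, a ubiquitin ligase that is also a NOTCH target, stood at 944 and 892 CPM and 294 and 321 CPM, a difference of -1.58 (SE 0.07). In MOLT-4, HES1 fell from 54.7 and 53 CPM to 0.847 and 0.797 CPM, a change of -6.02 (SE 0.12) (edgeR adjusted p = 6.67e-36). HES1 thus was readily measured in number 2 and almost absent in MOLT-4 with ACBI-1. The test of the difference between the lines gave 5.01 (SE 0.16) for HES1 (edgeR adjusted p = 1.84e-14), 1.65 (SE 0.13) for DTX1 (adjusted p = 9.85e-09) and 1.14 (SE 0.10) for NOTCH1 (adjusted p = 3.96e-08). Of 17 list members tested in DND-41, 5 were higher and 8 lower, with a median of -0.13. CR2, a complement receptor counted in the list, went the other way, at 12.6 and 12.3 CPM against 52.4 and 55.6 CPM, while it fell in MOLT-4 from 32.7 and 31.1 CPM to 13.6 and 12.9 CPM.

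MYC showed the reverse order of the lines. MYC stood at 502 and 546 CPM in number 1 and 159 and 183 CPM in number 2, a difference of -1.61 (SE 0.08), while it fell by 0.70 on the log2 scale in MOLT-4, from 526 and 511 CPM to 323 and 315 CPM. The difference between the lines was -0.93 (SE 0.09) (edgeR adjusted p = 3.40e-07). MXD4, which competes with MYC for their shared partner MAX, was higher in number 2, at 47.7 and 48.8 CPM against 112 and 114 CPM.

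Genes of ribosome and nucleotide synthesis, a list of known MYC targets, were lower in number 2 without exception: 42 of 42 were lower, with a median of -0.86. ODC1, the first enzyme of polyamine synthesis, stood at 395 and 414 CPM in number 1 and 121 and 130.4 CPM in number 2. SRM, the spermidine synthase that acts after it, stood at 245 and 250.0 CPM and 71.4 and 83.0 CPM. DDX21, a nucleolar RNA helicase, stood at 442 and 420.2 CPM and 169 and 177 CPM, and the mitochondrial chaperonin HSPD1 at 608 and 614 CPM and 255 and 258 CPM. Each of the 4 genes was more than 2-fold lower in number 2. In MOLT-4, 41 of 42 members fell, with a median of -0.47. ODC1 fell there by 1.0 and SRM by 0.80 on the log2 scale, each less than its gap in DND-41 (differences -0.70 and -0.89, edgeR adjusted p = 2.34e-06 and 7.29e-07).

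The E-box CACGTG, the sequence that MYC and MAX bind, was looked up in the 250 bases before the RefSeq starts of these genes (GRCh38.p14). It reads the same on both strands. The stretch before SRM was picked because it holds the E-box, which most promoters of the list lacked. No other gene's window in the table overlaps that of SRM. The stretch shown lies at chr1:11060175-11060254 on the minus strand. The capitals mark the E-box, whose first base is 199 bases before the start.
SRM: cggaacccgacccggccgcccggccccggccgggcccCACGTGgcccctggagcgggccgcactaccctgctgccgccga
Among the list's members 34 had a promoter in the RefSeq table, and 5 of these held CACGTG, or 14.7%. Over all 27305 promoters listed there, 6.49% held it, and over those of genes tested in DND-41 9.03%. Of genes lower in number 2, 9.49% held it, and of genes higher in number 2, 9.07%. The hexamer was thus about as frequent on either side of the DND-41 gap, and its presence is a description of the letters only.

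Genes of glycolysis and of protein folding were mostly lower in number 2 too. Of the hypoxia and glycolysis list 23 of 32 were lower in number 2 and 5 higher, with a median of -0.61. HK2, which traps glucose in the cell by phosphorylation, stood at 124 and 113 CPM and 40.7 and 43.7 CPM, and the later glycolytic enzyme ENO1 at 2329.8 and 2441 CPM and 890.4 and 976 CPM. NDRG1, a stress-response gene of the list, was among the 5 that were higher, at 33.7 and 32.0 CPM against 83.1 and 79.1 CPM, though it fell slightly in MOLT-4 (-0.23 (SE 0.08), edgeR adjusted p = 0.0158, not called by DESeq2 or with total-count scaling). Of the heat shock and endoplasmic reticulum stress list 22 of 26 were lower. The cytosolic chaperone HSP90AB1 stood at 1988 and 2052 CPM and 835 and 829 CPM, and HSPA5, the main chaperone of the endoplasmic reticulum, at 258 and 266 CPM and 142 and 151 CPM. HSPA5 fell further in MOLT-4, by 1.71 on the log2 scale, and the difference of 0.86 (SE 0.08) passed its test (edgeR adjusted p = 1.52e-07). Nuclear genes of oxidative phosphorylation were lower in 21 of 39 cases, with a median of -0.21, whereas of the 13 mitochondrially encoded mRNAs 2 were higher (MT-ND5 and MT-ND6) and none lower. Cytosolic ribosomal proteins moved little, with 15 of 56 lower, near the 25.7% over all genes tested. Their median of -0.08 turned to 0.03 when libraries were scaled by total counts.

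T-cell genes did not move as 1 block. Of the T-cell receptor list 20 of 36 were lower and 7 higher, with a median of -0.39. CD7, an early T-lineage surface protein, was among the most abundant of the genes that separated the numbers, at 1293 and 1281 CPM in number 1 and 227 and 262 CPM in number 2. UBASH3A, a brake on receptor signalling, stood at 57.2 and 58.6 CPM and 16.8 and 16.3 CPM. CD3G, a chain of the receptor complex, was the other way round, at 448 and 442 CPM and 1114 and 1164 CPM, and it rose in MOLT-4 too (0.64 (SE 0.04), edgeR adjusted p = 2.72e-19). Of the homing list 13 of 24 were lower and 7 higher, the highest being KLF2. IL2RG, the receptor chain shared by several interleukins, stood at 493 and 497 CPM and 171 and 189 CPM, with a difference of -1.46 in DND-41 beside -1.48 in MOLT-4.

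Genes of immature thymocytes went both ways in each line. In DND-41 8 of 15 were higher in number 2 and 5 lower, with a median of 0.44. In MOLT-4 5 of 20 rose, near the 28.2% over all genes tested there, and 11 fell, beside 30.2%. The MOLT-4 median was -0.62 over its larger set of members tested. Of the 15 members tested in both lines, 7 were called in the same direction and 2 in opposite ones. RAG1, which cuts DNA to assemble receptor genes, stood at 1205 and 1064 CPM and 2626 and 2425 CPM in DND-41, and did not pass the test in MOLT-4 (edgeR adjusted p = 0.624). SOX4, a factor of early lymphocytes, stood at 452 and 443 CPM and 977 and 963 CPM. CD1A, a surface protein of cortical thymocytes, was higher in number 2, at 65.7 and 69.8 CPM against 119.5 and 124 CPM, but fell in MOLT-4 from 156 and 157 CPM to 48.1 and 47.4 CPM, and the difference between the lines was 2.55 (SE 0.09) (edgeR adjusted p = 3.77e-14). IGLL1, the surrogate immunoglobulin light chain, was lower in number 2, at 317 and 355 CPM against 71.5 and 82.2 CPM, and fell in MOLT-4.

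**Figure D2:**
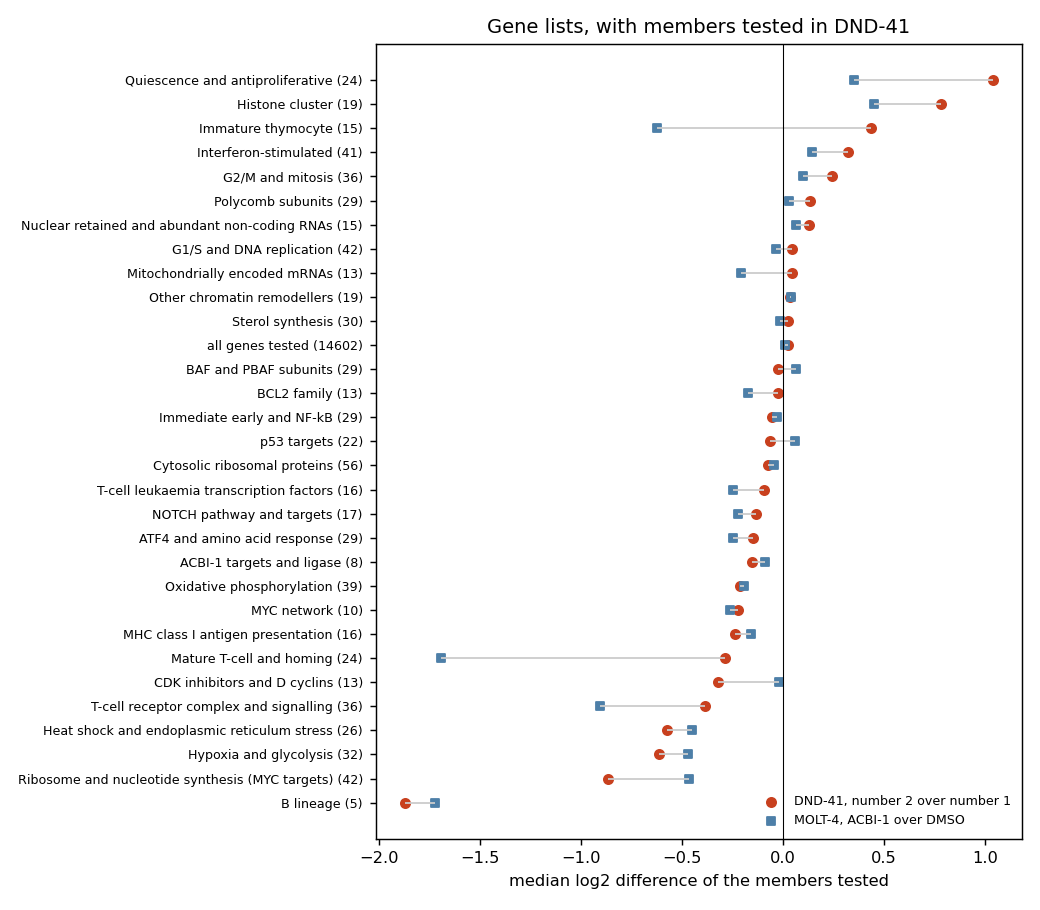
Median log2 difference of each gene list with at least 5 members tested in each line, with the members tested in DND-41 in brackets. Red circles are DND-41 (number 2 over number 1) and blue squares MOLT-4 (ACBI-1 over DMSO); the ribosome and nucleotide synthesis list sits at -0.86 and -0.47, and the quiescence and antiproliferative list at 1.04 and 0.35.

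The cell cycle lists did not follow the growth genes. Of mitotic genes 23 of 36 were higher in number 2 and 2 lower, with a median of 0.24. BUB1, a kinase of the spindle checkpoint, stood at 295 and 288 CPM and 758 and 729.6 CPM. Of replication genes 9 were higher and 7 lower of 42, both under the 25.4% and 25.7% over all genes tested. CDK6, a kinase that starts the cycle, was lower, at 1228 and 1076 CPM and 577 and 523 CPM. Of the inhibitors, CDKN1B was higher, at 62.4 and 63.8 CPM and 87.1 and 90.3 CPM, and CDKN1A, a target of p53, was lower, at 17.6 and 21.1 CPM and 6.15 and 6.80 CPM. The p53 target list as a whole had 7 higher and 7 lower of 22, not far from the shares over all genes. Its median of -0.06 turned to 0.04 with total-count scaling.

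Interferon-stimulated genes were more often higher than lower in number 2. Of 41 members 23 were higher and 9 lower, beside 25.4% and 25.7% over all genes tested. The lowest stood at -2.78 on the log2 scale. IFITM1, a membrane protein that blocks virus entry, stood at 273 and 315 CPM and 39.4 and 45.9 CPM, with its neighbours IFITM2 at 133 and 135 CPM and 23.9 and 27.5 CPM and IFITM3 at 28.6 and 30.3 CPM and 5.35 and 5.16 CPM. The IFITM genes are related in sequence, so some of their counts may be split between them. IFITM1 and IFITM2 also fell in MOLT-4, by 2.46 and 1.88 on the log2 scale. Class I antigen presentation was lower in 9 of 16 members, HLA-B standing at 85.9 and 88.0 CPM and 51.2 and 58.5 CPM, and this gene did not pass the test in MOLT-4 (edgeR adjusted p = 0.899).

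Of the BAF and PBAF subunits 9 of 29 were higher and 7 lower in number 2, close to the 25.4% and 25.7% over all genes. GLTSCR1L, a subunit of the non-canonical form, stood at 49.8 and 44.0 CPM and 111 and 103 CPM and rose in MOLT-4 by 2.0 (SE 0.09). DPF3, a reader subunit, was lower at 5.14 and 5.13 CPM against 2.56 and 2.53 CPM and fell in MOLT-4. The remodeller CHD4 stood at 630.4 and 588 CPM and 345 and 323 CPM, and the Polycomb subunit CBX7 at 12.3 and 12.3 CPM and 37.3 and 33.1 CPM. Of histone cluster genes 12 of 19 were higher in number 2 and 2 lower, with a median of 0.78. The summed level of that list did not rise with them, at 1828 and 1955 CPM in number 1 and 1713 and 1818 CPM in number 2. Among leukaemia transcription factors GATA3 was lower, at 119 and 119 CPM and 75.9 and 75.6 CPM, and TCF12, a partner of TAL1, higher, at 254 and 235 CPM and 444 and 406 CPM. The medians of the leukaemia factor list (-0.10) and the BAF list (-0.02) turned to 0.01 and 0.08 with total-count scaling, which moved the median of all genes by 0.10 in DND-41.

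Markers of other cell types moved with the number only through a few genes. The 14 B-lineage markers summed to 1142 and 1237 CPM in number 1 and to 341 and 386 CPM in number 2. CD79A, a chain of the B-cell receptor, made up most of that, at 711 and 767 CPM and 188 and 216 CPM, with IGLL1 next. The defining B-cell markers MS4A1, CD22 and IGHM had no count in any of the 4 libraries, and 9 of the 14 were under 1 CPM in each. Of 14 myeloid markers 11 had no count, among them LYZ and MPO. Of 14 erythroid and platelet markers 13 were under 1 CPM in each library. Of 14 epithelial and stromal markers 11 were under 1 CPM, and VIM, which lymphoid cells also express, carried the sum of 504 to 539 CPM in number 1 and 262 to 284 CPM in number 2. In bulk RNA, fewer cells of a type and less RNA per cell cannot be told apart.

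The MOLT-4 response was measured in libraries that the split did not use, so it gives an outside reference for the DND-41 gap. Over 13272 genes tested in both lines, 7834 were called in MOLT-4, and 6674 of these (85.2%) had a DND-41 difference of the same sign as number 2 over number 1. With the DND-41 sign turned, 14.8% would match. Of all genes tested in both lines 52.2% were called between the DND-41 numbers. Of 3728 genes that rose in MOLT-4, 3145 (84.4%) had a positive DND-41 difference and 2184 (58.6%) were called higher in number 2, beside 25.9% of all genes tested in both lines. Of 4106 that fell, 3529 (85.9%) had a negative one and 2583 (62.9%) were called lower, beside 26.4%. Across genes, which are not independent replicates, Pearson's r was 0.607 and Spearman's rho 0.649 over the 13272 genes, and r fell to 0.199 when genes of low count were kept in. The lines share no library, but the libraries were counted in the same way. In the names of the deposited counts, every MOLT-4 library carries the word redo and no DND-41 library does. What that word stands for is not given in the sources used here.

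**Figure D3:**
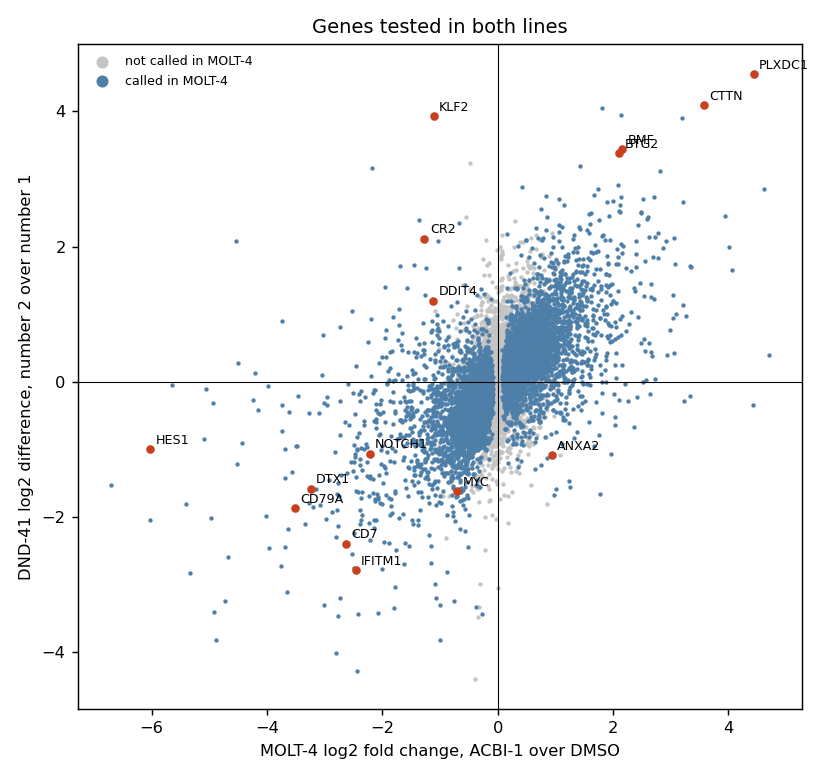
Each point is 1 of 13272 genes tested in both lines, with the MOLT-4 log2 fold change (ACBI-1 over DMSO) on the x axis and the DND-41 log2 difference (number 2 over number 1) on the y axis. Blue points were called in MOLT-4 and red points are named genes; most called genes lie at the lower left and the upper right, with KLF2, CR2, DDIT4 and ANXA2 outside them.

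The size of the DND-41 difference was graded with the MOLT-4 change. The 165 genes that fell more than 2 units of log2 in MOLT-4 had a median of -1.19 in DND-41, and the 103 genes that rose more than 2 units had a median of 1.39. Between 0 and 0.5 in MOLT-4 the median was 0.18 over 4637 genes, and between -0.5 and 0 it was -0.17 over 5172. For small MOLT-4 changes the DND-41 medians were of about the same size, and for large ones they were smaller: the genes raised beyond 2 units had a MOLT-4 median of 2.49. As the MOLT-4 bins were set on MOLT-4 values, its own extremes are the larger by selection.

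**Figure D4:**
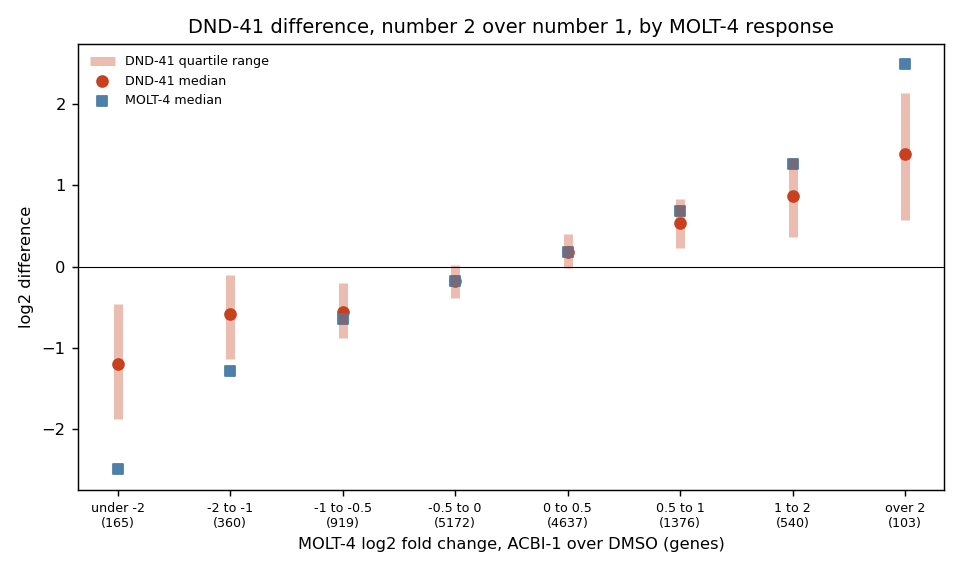
Genes tested in both lines, grouped on the x axis by MOLT-4 log2 fold change with the number of genes in brackets. Red circles and bars give the median and quartile range of the DND-41 log2 difference (number 2 over number 1), blue squares the MOLT-4 median; the DND-41 medians climb from -1.19 to 1.39.

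The 632 genes raised at least 2-fold in MOLT-4 had a mean log2 CPM of 1.57 and 1.59 in the DND-41 libraries numbered 1 and of 2.52 and 2.44 in those numbered 2. In MOLT-4 the same mean went from 0.77 and 0.80 with DMSO to 2.24 and 2.21 with ACBI-1. The 521 genes lowered at least 2-fold stood at 3.82 and 3.84 in number 1 and at 3.06 and 3.08 in number 2, and went from 3.61 and 3.61 to 1.87 and 1.87 in MOLT-4. Within a number, the library labelled ACBI-1 and the one labelled DMSO lay close together on both means, and the numbers did not overlap. Over all 13272 genes the DND-41 means were between 4.35 and 4.39. From the DND-41 side, 455 of 681 genes at least 2-fold higher in number 2 rose in MOLT-4 (66.8%) and 26 fell, and 387 of 510 genes at least 2-fold lower fell in MOLT-4 (75.9%) and 14 rose. Over all genes tested in both, 28.1% rose and 30.9% fell in MOLT-4.

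Among the 12 largest MOLT-4 rises, 10 were called higher in number 2 and none lower. TRIB1, a pseudokinase, rose in MOLT-4 from 1.47 and 1.09 CPM to 20.8 and 20.7 CPM and stood at 0.969 and 1.03 CPM and 4.27 and 3.73 CPM in DND-41. PTMS, parathymosin, rose by 4.71 (SE 0.15) in MOLT-4, and was expressed in each DND-41 library, at 20.7 and 23.2 CPM and 27.7 and 30.1 CPM. Its DND-41 call was lost without the library DMSO 2, where the difference was 0.31. Of the 12 largest MOLT-4 falls, 11 were called lower, CCR9 and LTB among them with calls that a single library decided. CD48, an adhesion receptor of lymphocytes, stood at 31.6 and 34.6 CPM and 8.04 and 8.36 CPM in DND-41 and fell in MOLT-4 from 19.6 and 21.2 CPM to 0.535 and 0.753 CPM. CCR9, the receptor that guides thymocytes and gut T cells, was already at 1.65 and 1.81 CPM in number 1 and at 0.854 and 1.07 CPM in number 2. Its call was lost with DESeq2 and without ACBI-1 1, ACBI-1 2 or DMSO 1, the difference being -1.04 to -0.69 when 1 library was left out. SEMA7A, a membrane semaphorin, was the exception, at 69.5 and 68.7 CPM and 72.2 and 78.5 CPM. LTB, lymphotoxin beta, stood at 284 and 311 CPM and 237 and 243 CPM while MOLT-4 went from 16.1 and 14.1 CPM to 0.624 and 0.354 CPM, a difference between the lines of 4.61 (SE 0.21) (edgeR adjusted p = 3.37e-12). The DND-41 call of LTB was lost without ACBI-1 2, with a difference of -0.29.

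The test of the DND-41 gap against the MOLT-4 change called 3307 of 16047 genes (20.6%), 1437 of them higher in DND-41 (8.95%) and 1870 lower (11.7%). Of the 3202 that were tested in each line, 1933 had the same sign in both, 702 with the larger change in MOLT-4 and 1231 with the larger in DND-41. Another 1269 had opposite signs, and 383 of these were called in each line. With the DND-41 sign turned to number 1 over number 2, the same test called 8972 genes.

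Genes with opposite signs in the lines included KLF2, a factor that keeps T cells resting and drives their homing receptors. KLF2 stood at 1.26 and 0.684 CPM in number 1 and 14.4 and 15.5 CPM in number 2, a difference of 3.93 (SE 0.20), while in MOLT-4 it fell from 2.04 and 1.99 CPM to 0.937 and 0.93 CPM. The difference between the lines was 5.03 (SE 0.35) (edgeR adjusted p = 1.62e-09). DDIT4, an inhibitor of mTORC1, stood at 17.7 and 19.3 CPM and 41.9 and 43.1 CPM, and LYST, a regulator of lysosome size, at 4.07 and 2.64 CPM and 12.5 and 9.11 CPM. Each of DDIT4 and LYST fell by more than 2-fold in MOLT-4. BHLHE23, MFAP4, ITGAE and PLAC8 completed the named genes of this kind, with DND-41 differences of 1.05, 1.0, 0.87 and 0.86. Reads of a gene on the opposite strand came to 46.3% of the MFAP4 count and 129% of the ITGAE count, and the strand setting of the counting is not given in the sources used here.

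In the other direction, ANXA2, a membrane-binding annexin, stood at 55.3 and 57.3 CPM in number 1 and 25.4 and 27.7 CPM in number 2, and rose in MOLT-4 from 17.1 and 14.7 CPM to 29.6 and 31.4 CPM. The difference between the lines was -2.03 (SE 0.12) (edgeR adjusted p = 8.80e-11). ATF5, a stress-responsive transcription factor, stood at 539 and 565 CPM and 295 and 326 CPM and rose in MOLT-4 by 0.67 (SE 0.06), with reads of an opposite-strand gene at 55.8% of its DND-41 count. PHLDA3, a p53-induced inhibitor of AKT, stood at 6.74 and 6.50 CPM and 4.04 and 4.0 CPM and rose by 0.56 (SE 0.11). SH3PXD2B, AKAP6, CORO1C, ATP1B1 and NPL went the same way, with DND-41 differences of -0.92, -1.29, -0.57, -0.57 and -0.58. For ATP1B1 an opposite-strand gene had 148% of its count.

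The contrast as the labels state it, ACBI-1 over DMSO across the DND-41 numbers, gave no calls in the fit that has no term for the number. Of 14602 genes 0 passed an adjusted p of 0.05 in edgeR (0%), with 37 genes at an unadjusted p under 0.05. DESeq2 also called 0, with 7 at an unadjusted p under 0.05. The gap between the numbers is part of the spread in that fit.

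Within each number the libraries labelled ACBI-1 and DMSO still differed by more than counting noise, as the chi-square values of 5.49 and 5.09 show. IGSF9B, a synaptic adhesion gene, stood at 19.4 CPM labelled ACBI-1 and 15.7 CPM labelled DMSO in number 1, and at 37.2 and 22.2 CPM in number 2. REL, a subunit of NF-kB, stood at 21.8 and 14.8 CPM in number 1 and 32.5 and 23.0 CPM in number 2. MRPL36, a short mitochondrial ribosomal protein, was on the other side, at 21.0 and 28.9 CPM in number 1 and 13.7 and 17.5 CPM in number 2. Across 14602 genes, the labelled differences within number 1 and within number 2 had a Pearson's r of 0.161 and a Spearman's rho of 0.272.

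These labelled differences moved with exon length. In the decile of genes with the longest exons the median labelled difference was 0.11 in number 1 and 0.11 in number 2. In the second shortest decile it was -0.13 and -0.068, and in the shortest -0.066 and 0.014. The gap between the numbers was 0.19 in the shortest decile, -0.0057 in the second and -0.052 in the third, its lowest. In the longest decile the gap was 0.068. MOLT-4 with ACBI-1 stood at 0.079, -0.032, -0.046 and 0.055 in the same deciles. The part of exon length in the labelled differences was not tested. Between the numbers, the count of calls changed by less than 1.5 times with a length trend removed.

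**Figure D5:**
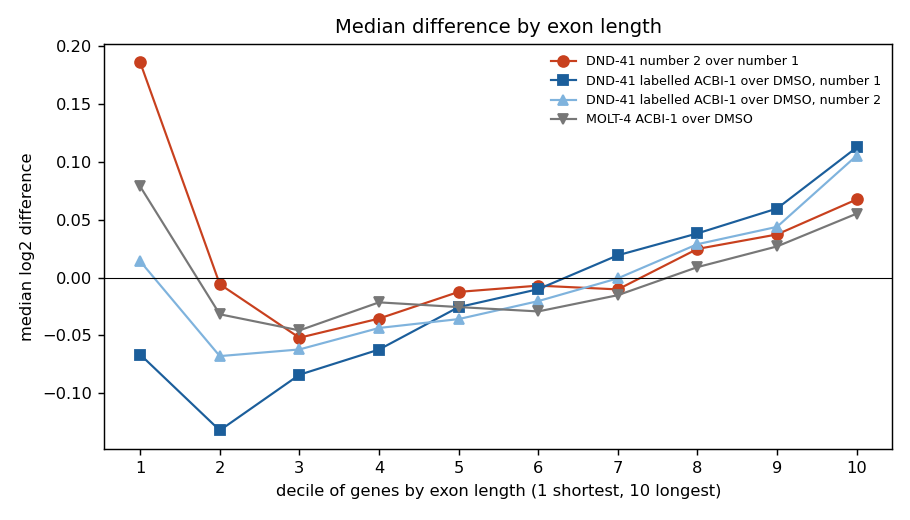
Median log2 difference of genes in deciles of exon length, shortest to longest, for the DND-41 numbers (red), the labelled ACBI-1 over DMSO within each number (blue shades) and MOLT-4 (grey). The labelled differences within a number climb from the second shortest decile (-0.13 and -0.068) to the longest (0.11 in each).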

How the data were processed

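RNA-seq of 4 DND-41 and 4 MOLT-4 libraries was analysed from the deposited whole-number counts per gene (63677 genes). Per the submitters' processing notes, the tools named are STAR 2.5.2a, featureCounts and DESeq2 1.12.4, with the build hg19; their settings are not given in the sources used here. The authors' deposited tables hold mean normalised counts (a signal), log2 fold changes with their errors, a test score (Wald statistic), and p-values. Only their log2 values are used, to find which libraries they compare, apart from the adjusted p given for KLF2.

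Libraries were scaled by TMM, filtered by filterByExpr and tested with edgeR 4.0.16 (R 4.3.3) by the quasi-likelihood test, 2-sided, with Benjamini-Hochberg adjustment at 0.05. The difference between lines was tested over all 8 libraries in 4 groups. CPM are TMM-scaled, and mean log2 CPM uses a prior count of 2. Groups came from the labels and the DND-41 numbers from the titles. Gene types, exon lengths and opposite-strand overlaps came from GENCODE 29 by gene ID (82.5% matched). The fits were tested on simulated data.

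The members and gene lists were chosen with earlier results of these data known. Named genes are the compound's targets and line markers, the largest differences (up to 15 per direction, protein-coding, at least 5 CPM, numbers not overlapping), the largest MOLT-4 changes (12 per direction), 8 per kind shared or opposed, 6 per direction within numbers, and up to 4 per list with the smallest adjusted p. Some of these genes are not reported here. Alternatives covered scaling, filters, DESeq2 1.42.0, a 1.5-fold threshold, exon length, shared spread, blocks and leaving out each library. Depth was 21308737 to 22067644 counts per library.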

Additional observations from a re-analysis of the deposited data

Results flagged for a closer look

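The results below are listed because the difference between the lines, DND-41 number 2 over number 1 minus MOLT-4 ACBI-1 over DMSO, passed a test of its own. The value of each gene is that difference on the log2 scale. In all, 3307 of 16047 genes passed the test (edgeR's quasi-likelihood test, adjusted at 0.05). As the test takes in the DND-41 split, which was chosen from the values, its calls are a yardstick and not evidence of their own. What the DND-41 numbers stand for is unsettled, and turning the numbers would change each value.

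Of the NOTCH pathway genes, NOTCH1 differed by 1.14, DTX1 by 1.65 and HES1 by 5.01, each lower in number 2 by less than they fell in MOLT-4. HSPA5, at 0.86, and LTB, at 4.61, also fell further in MOLT-4. MYC differed by -0.93, ODC1 by -0.70, SRM by -0.89 and BTG1 by 1.64, each with the larger change in DND-41. Among genes higher in number 2 that fell in MOLT-4, the difference was 5.03 for KLF2, 3.37 for CR2, 2.91 for LYST, 2.30 for DDIT4, 3.56 for BHLHE23, 2.03 for MFAP4, 2.14 for ITGAE, 1.90 for PLAC8 and 2.55 for CD1A. Among genes lower in number 2 that rose in MOLT-4, it was -2.03 for ANXA2, -2.05 for SH3PXD2B, -1.52 for ATF5, -1.96 for AKAP6, -1.19 for CORO1C, -1.15 for ATP1B1, -1.29 for PHLDA3 and -1.12 for NPL.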

How the results depend on the processing

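Against a change of 1.5-fold, 1631 genes passed between the DND-41 numbers and 1737 in MOLT-4. With no filter on low counts the test between the lines called 2055 genes, more genes being tested, and with the DND-41 sign turned it called 8972. The share of MOLT-4 called genes with the same sign in DND-41 was 87.8% with DESeq2, 86.4% with no filter, 86.5% over genes changed at least 2-fold in MOLT-4, and 83.9 to 86.9% when 1 library was left out.

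Leaving out 1 library gave 5163 to 6466 calls between the DND-41 numbers, 6888 to 7123 in MOLT-4, 2218 to 3281 between the lines and 0 for the labelled DND-41 contrast, the lone library of a group being assumed to vary like the others. Without DND-41 ACBI-1 2, 2453 genes were called higher in number 2. Without MOLT-4 DMSO 1, 950 genes were higher in DND-41 in the test between the lines, and without MOLT-4 DMSO 2, 1244 were lower.

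Same-numbered libraries deviated together in DND-41 (correlation of deviations 0.849) and hardly in MOLT-4 (0.00928), and with 2 pairs they share only a number. With the replicate number as a block, the labelled DND-41 contrast called 1349 genes and MOLT-4 8581, and the share of matching signs was 85.2%; the block ended no other call counted here.

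Values that had not passed the test changed sign for 4 genes. SMARCA4 in DND-41 was -0.040 with the exon length trend removed and -0.011 to 0.093 when 1 library was left out, and PBRM1 in DND-41 -0.025 to 0.16. RAG1 in MOLT-4 was -0.011 with the length trend removed and -0.023 to 0.061 with 1 library left out. HLA-B in MOLT-4 was -0.015 with no filter and -0.0030 to 0.016 with 1 left out. The cause was not tested.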
